A study of Mus musculus with 18 samples.

Results

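Serine synthesis and folate one-carbon metabolism were followed through 9 enzyme genes, chosen by name from the 54347 genes of an RNA-seq count table of mouse marrow-derived mesenchymal stem cells (MSC). The genes were Phgdh, Psat1 and Psph of serine synthesis, Shmt1 and Mthfd1 of the cytosolic folate pathway, and Shmt2, Mthfd2, Mthfd1l and Aldh1l2 of the mitochondrial folate pathway. All 9 were found in the table and all 9 were tested in every comparison. The cells were a primary line made from the marrow of several male C57BL/6J mice, so all groups share that strain, sex and source. The 18 libraries fell into 6 groups of 3. In untransfected cells the groups were control (no treatment), CK666 (an inhibitor of the Arp2/3 complex, which starts branches on actin filaments) and CytoD (cytochalasin D, which blocks actin polymerization). In transfected cells the groups were siControl (given the control siRNA, and labelled both as control and as mock), siArp4 (given an siRNA against Arp4, the product of Actl6a) and siArp4+CK666 (given both). Cells given siControl and CK666 were not analysed here. By the methods, each library was its own preparation of a culture condition. Since the preparations share that cell line and no label ties a library to an animal, p-values measure the spread between preparations of these cells and not between animals.

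Serine is made from the glycolytic intermediate phosphoglycerate by Phgdh, which oxidizes it, Psat1, which adds an amino group, and Psph, which removes the phosphate. Shmt1 in the cytosol and Shmt2 in mitochondria then move a carbon from serine onto tetrahydrofolate, giving glycine. Mthfd1, Mthfd2, Mthfd1l and Aldh1l2 interconvert the folate-bound carbon or release it as formate or carbon dioxide. The carbon is used to build purines and thymidylate and to remake methionine, and the mitochondrial branch is known for rising with proliferation and with the amino acid response, in which the transcription factor ATF4 binds composite elements together with C/EBP proteins.

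The bases before the start of Phgdh, the first enzyme of the pathway, and of Mthfd2 are shown because 3 motifs of regulators known for this pathway were searched there. Of the 9 genes, Mthfd2 had the largest fold changes between the untransfected groups. Both come from RefSeq on GRCm38.p6, each being the 250 bases before the annotated start, written 5′ to 3′ on the gene's own minus strand, at chr3:98339970-98340219 for Phgdh and chr6:83317605-83317854 for Mthfd2. The RefSeq start of Phgdh lies 21 bases inside the GENCODE gene whose coordinates are given below, while that of Mthfd2 lies 8304 bases inside it, because GENCODE begins the gene further upstream. Capitals mark the only motif match in either.
Phgdh: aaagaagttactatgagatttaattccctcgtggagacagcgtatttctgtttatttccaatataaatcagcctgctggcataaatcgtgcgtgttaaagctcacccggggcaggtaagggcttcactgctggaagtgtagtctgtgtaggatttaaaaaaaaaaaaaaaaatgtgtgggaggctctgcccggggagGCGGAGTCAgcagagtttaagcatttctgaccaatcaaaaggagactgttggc
Mthfd2: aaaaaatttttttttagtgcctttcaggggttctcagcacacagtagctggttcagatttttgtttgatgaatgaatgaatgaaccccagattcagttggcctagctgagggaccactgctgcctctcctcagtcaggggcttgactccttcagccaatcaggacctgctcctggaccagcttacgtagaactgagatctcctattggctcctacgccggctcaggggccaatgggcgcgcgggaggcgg
The capitals in Phgdh lie 45 to 53 bases before the start and match TGACNNNGC, the core of the antioxidant response element, on the other strand. That core was found in 10.2% of all 32851 RefSeq promoter windows of this length, searched on both strands. TGATGNAA, the core of the composite ATF4 element, was found in none of the 9 windows of the 8 members in the promoter table and in 3.45% of all windows, and CACGTG, the E-box, in none of the 9 and in 6.02% of all. Psat1 had 2 windows and Aldh1l2 had none. The letters alone say nothing of binding.

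Library totals ran from 18075610 to 24733212 estimated counts, and the targeted Actl6a was lower than in siControl, by log2 values of -4.42 after siArp4 alone and -5.73 when CK666 was added. Some libraries stood apart from others of their group. The siControl libraries lay 34.2 to 62.3 from each other (Euclidean distance of variance-stabilized values over the 1000 most variable genes), against 15.0 to 17.7 for control. Longer genes read relatively higher in siControl replicate 1, by 0.30 on the log2 scale per doubling of length, and lower in siControl replicate 2, by -0.26, while CK666 replicate 1 stood at -0.20 and CK666 replicate 2 at 0.15. In siArp4+CK666 replicate 1 stood at 0.15 and replicate 3 at -0.16. Of 10 mesenchymal stromal markers 9 were detected in every group, with Thy1 at 0 in all libraries. Their summed normalized counts were 47960 to 50900 in control, 26810 to 31060 with CK666 and 121900 to 125800 with CytoD, and in transfected cells 64230 to 86680 in siControl, 26090 to 27500 in siArp4 and 26860 to 29830 in siArp4+CK666. These sums are weighted to Cxcl12, which averaged 54250 normalized counts over the untransfected and 32110 over the transfected libraries. With CytoD Cxcl12 was called higher, at a log2 value of 1.64, and Cd44 lower, at -1.05. The median of the 8 markers tested was 0.40 with CytoD and -0.58 with CK666. In siArp4 against siControl Cxcl12 was called lower, at -2.41, and Ly6a higher, at 1.42, with a median of -0.05. Ptprc was at 0 in 5 of the 6 groups and Cdh5 in all 6, and the 6 haematopoietic markers together reached at most 231 normalized counts in a library. Cd68, a haematopoietic marker, was called higher with CytoD, at a log2 value of 1.42 and a mean of 78.65 normalized counts. The 1 endothelial marker tested in siArp4+CK666 against siControl was called higher, at 2.67 and a mean of 12.06. The 5 adipocyte markers summed to 919 to 929 normalized counts in control, 1712 to 2570 with CK666 and 2266 to 2629 with CytoD, and to 2156 to 2930 in siControl, 1162 to 1322 in siArp4 and 3529 to 4196 in siArp4+CK666, with Lep at 0 throughout. The part of both marker lists in the results below was not tested. In bulk samples, fewer cells of a type and less RNA per cell cannot be told apart.

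Before any comparison, the levels of the 9 genes were set in order per kb of annotated exon. In control cells Phgdh was highest, at 3136 ± 178 normalized counts per kb (SD, n = 3), ahead of Psat1 at 2217 ± 115 and Shmt2 at 1503 ± 91.2. Mthfd1l followed at 714 ± 18.4, then Mthfd1 at 525 ± 5.41 and Mthfd2 at 408 ± 17.3. Aldh1l2 stood at 252 ± 9.49, Psph at 171 ± 9.97 and Shmt1 at 126 ± 34.0. The ranges of neighbours in this order did not overlap, although the highest Shmt1 library, at 164, lay just under the lowest Psph library, at 165, and the order was the same per kb of the longest transcript. With CK666, Mthfd2 moved from the sixth to the fourth place in the order of mean levels per kb, at 1488 ± 191, and Aldh1l2 from the seventh to the fifth, at 793 ± 240. The CK666 ranges of Shmt2 and Psat1 overlapped, as did those of Aldh1l2, Psph and Mthfd1l. With CytoD, Mthfd2 stood in the seventh place, at 73.8 ± 7.13 per kb, close to Psph at 70.0 ± 2.45, and their ranges overlapped.

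**Figure D1:**
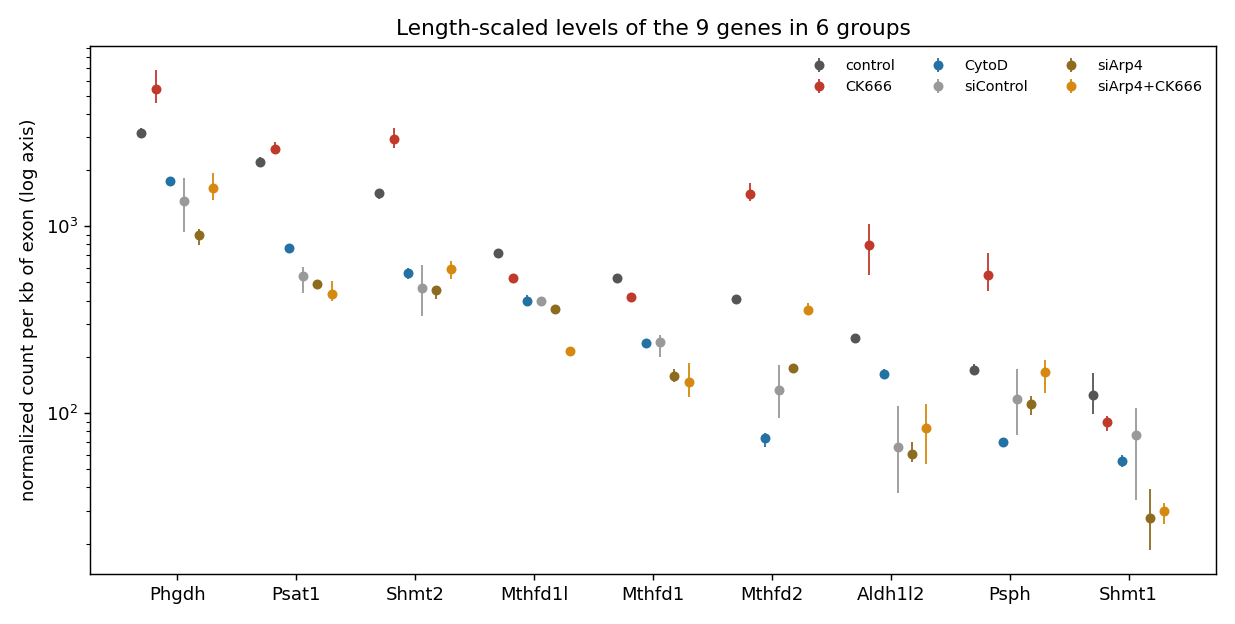
Normalized count per kb of exon (log axis) for each of the 9 genes, ordered by the control level, in 6 groups of 3 libraries. Points are means and bars run from the lowest to the highest library. The untransfected and the transfected groups were scaled separately. Phgdh is the highest gene in every group and Shmt1 is the lowest in 5 of the 6, with Aldh1l2 lowest in siControl.

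CK666 against control asked how blocking Arp2/3 changed expression. A gene was called when its adjusted p (DESeq2 Wald test, Benjamini-Hochberg over all genes tested) was below 0.01 and its log2 fold change above 1 or below -1. Psph, Mthfd2 and Aldh1l2 were called higher and no member was called lower, while 4.8% of all genes tested were called higher and 5.95% lower. With no fold minimum 5 members passed in the upward direction, Phgdh and Shmt2 being the others, and Mthfd1 and Mthfd1l passed in the downward direction, beside 15.0% of all genes higher and 14.4% lower. The median log2 fold change of the 9 was 0.79, against 0.01 over all genes tested.

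Among the genes of serine synthesis, Phgdh (ENSMUSG00000053398.11, chr3:98313170-98339990, minus strand) read 8283, 7418 and 7685 normalized counts in control and 17030, 11350 and 12100 with CK666. The groups did not overlap, and CK666 replicate 1 was well above the other two. The log2 fold change was 0.79 (SE 0.15, adjusted p = 1.35e-06, DESeq2), under the fold minimum, and without CK666 replicate 1 it was 0.59. Psat1 (ENSMUSG00000024640.9, chr19:15904678-15947337, minus strand) read 9951, 8977 and 9368 in control and 11980, 10430 and 10520 with CK666. All CK666 libraries were above all control libraries, but by little, and the log2 difference of 0.22 (SE 0.09, adjusted p = 0.0490, DESeq2) did not pass. Psph (ENSMUSG00000029446.14, chr5:129765558-129787449, minus strand) read 714, 790 and 716 in control and 3097, 2082 and 1958 with CK666. Its groups lay far apart. The log2 fold change was 1.68 (SE 0.18, adjusted p = 1.96e-20, DESeq2), a 3.22-fold difference, and without CK666 replicate 1 it was 1.45. Psph overlaps Cct6a on the opposite strand and shares 9.45% of its 31-base words with it, the libraries keep no strand, and Cct6a had 5825 counts on average against 864 for Psph. Cct6a itself differed by 0.09 with CK666 (adjusted p = 0.651, DESeq2).

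In the cytosolic pathway, Shmt1 (ENSMUSG00000020534.14, chr11:60788104-60811718, minus strand), the serine hydroxymethyltransferase of the cytosol, read 441, 385 and 637 in control and 311, 376 and 358 with CK666. The highest CK666 library lay just under the lowest control library, and the log2 difference of -0.48 (SE 0.20, adjusted p = 0.0432, DESeq2) did not pass. Without control replicate 3, the highest, it was -0.25 (adjusted p = 0.321), and without control replicate 2, the lowest, -0.63 (adjusted p = 0.0112, both DESeq2). Mthfd1 (ENSMUSG00000021048.7, chr12:76255298-76319803, plus strand), a single protein that carries out the folate interconversions of the cytosol, read 2310, 2327 and 2357 in control and 1929, 1864 and 1763 with CK666. The groups were tight and did not overlap, with a log2 difference of -0.33 (SE 0.09, adjusted p = 0.000486, DESeq2), below the fold minimum. The adjusted p rose above 0.01 without CK666 replicate 3 (0.0216), control replicate 2 (0.0118) or control replicate 3 (0.0158), and in a fit of all 18 libraries (0.0643, all DESeq2).

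In the mitochondrial pathway the members moved apart. Shmt2 (ENSMUSG00000025403.5, chr10:127517123-127522444, minus strand) read 4875, 4349 and 4795 in control and 10370, 8152 and 8619 with CK666. The groups were far apart, but the log2 difference of 0.95 (SE 0.12, adjusted p = 1.88e-14, DESeq2) stopped just short of the fold minimum, and leaving out CK666 replicate 2 took it to 1.03, where it was called. Mthfd2 (ENSMUSG00000005667.8, chr6:83305691-83325908, minus strand), the mitochondrial dehydrogenase and cyclohydrolase, read 1358, 1476 and 1438 in control and 5955, 4743 and 4873 with CK666. Every CK666 library exceeded every control library several times over, with a log2 difference of 1.87 (SE 0.12, adjusted p = 3.71e-49, DESeq2), or 3.64-fold. Mthfd1l (ENSMUSG00000040675.17, chr10:3973118-4167081, plus strand), which releases formate in the next step, read 3257, 3151 and 3096 in control and 2239, 2359 and 2428 with CK666. Here the treated libraries were the lower ones, without overlap, at a log2 difference of -0.44 (SE 0.09, adjusted p = 1.11e-05, DESeq2). Aldh1l2 (ENSMUSG00000020256.14, chr10:83487450-83534140, minus strand), which instead oxidizes the folate-bound carbon to carbon dioxide, read 1836, 1969 and 1859 in control and 4085, 7683 and 6074 with CK666. The CK666 libraries were all higher than control and differed widely among themselves, replicate 1 being the lowest, and the log2 fold change was 1.66 (SE 0.19, adjusted p = 1.92e-16, DESeq2). Tested against a log2 fold change of 1 rather than 0, its adjusted p was 0.0280 (DESeq2), which ended its call. Without CK666 replicate 1 it was 1.87 and with a fitted gene-length trend removed, a setting chosen after seeing the data, 1.74. Aldh1l2 shares 13.5% of its 31-base words with D10Wsu102e on the opposite strand, which differed by -0.42 with CK666 (adjusted p = 0.0129, DESeq2).

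**Figure D2:**
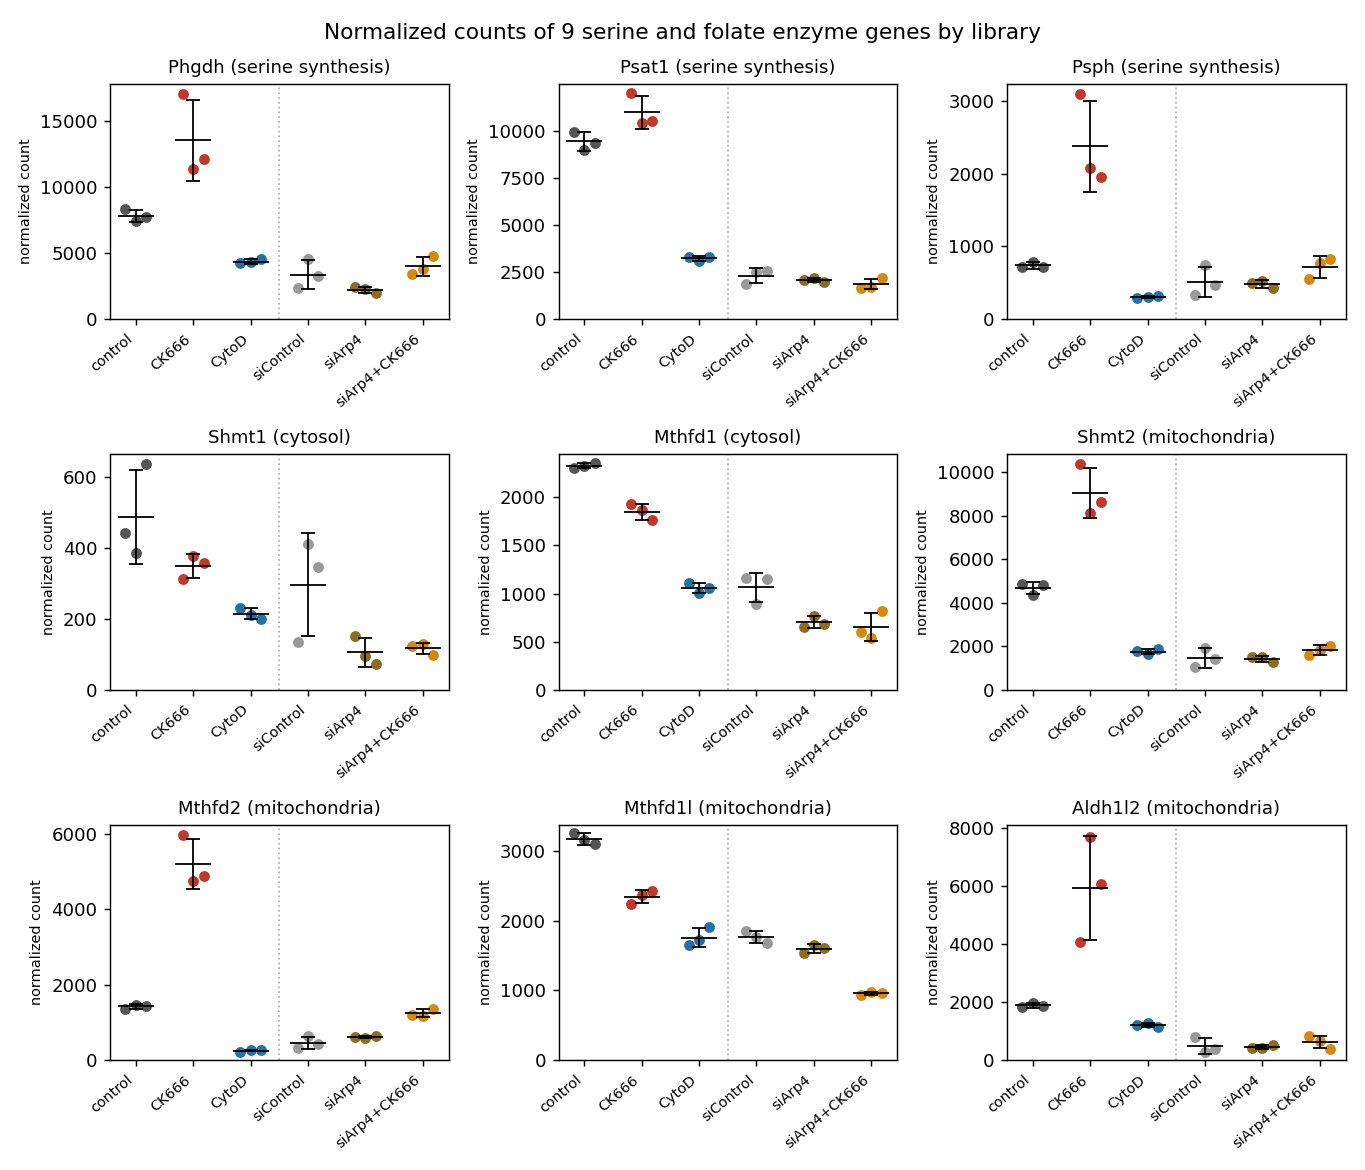
Normalized counts of the 9 genes in each library, on a linear axis from 0 in each panel, with the mean and SD of 3 libraries per group. Points stand in replicate order from left to right, and the dotted line parts the untransfected from the transfected libraries, which were scaled separately. CK666 libraries of Psph, Mthfd2 and Aldh1l2 stand apart above control, and CytoD libraries are below control in all 9 panels.

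CytoD against control asked the same of an agent that acts on actin in another way. It shares its control libraries with the CK666 comparison. No member was called higher and 6 were called lower (Psat1, Psph, Shmt1, Shmt2, Mthfd1 and Mthfd2), while 4.76% of all genes tested were called higher and 4.26% lower. With no fold minimum all 9 passed in the downward direction, beside 15.7% of all genes, and none in the upward direction, where 13.5% of all genes stood. The median log2 fold change of the members was -1.18, against 0.01 over all genes tested. In all 9 genes every CytoD library was below every control library.

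Phgdh read 4215, 4318 and 4534 normalized counts with CytoD and stood at -0.84 on the log2 scale (SE 0.15, adjusted p = 2.85e-07, DESeq2), which missed the fold minimum. Psat1 read 3324, 3088 and 3297, at -1.54 (SE 0.09, adjusted p = 6.66e-58, DESeq2). Psph read 293, 301 and 314, at -1.29 (SE 0.18, adjusted p = 1.68e-11, DESeq2). Within serine synthesis the transaminase Psat1 thus had the largest difference with CytoD and the smallest with CK666. Cct6a, which overlaps Psph, differed by -0.87 with CytoD (adjusted p = 2.87e-09, DESeq2).

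Shmt1 read 231, 212 and 201 with CytoD, at -1.18 (SE 0.20, adjusted p = 6.98e-08, DESeq2). Its 3 control libraries were spread, and without control replicate 3, the highest, the log2 fold change was -0.95 and the gene was no longer called. Mthfd1 read 1110, 1005 and 1060, at -1.14 (SE 0.09, adjusted p = 5.43e-37, DESeq2).

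Shmt2 read 1768, 1624 and 1857 with CytoD, at -1.42 (SE 0.12, adjusted p = 3.28e-30, DESeq2). Mthfd2 read 229, 271 and 272, at -2.47 (SE 0.13, adjusted p = 9.67e-73, DESeq2), which left 0.181 of its control level. It had the largest difference of the 9 in this comparison as in the CK666 comparison. Mthfd1l read 1648, 1716 and 1903, at -0.85 (SE 0.09, adjusted p = 4.33e-19, DESeq2). Aldh1l2 read 1198, 1294 and 1149, at -0.64 (SE 0.19, adjusted p = 0.00393, DESeq2), the smallest of the 9. It passed only narrowly, since edgeR gave it an adjusted p of 0.0231, a fit of all 18 libraries 0.137, and leaving out any of the 6 control and CytoD libraries 0.0109 to 0.0305 (DESeq2). Neither Mthfd1l nor Aldh1l2 reached the fold minimum.

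Set directly against CytoD, CK666 libraries were higher in all 9 genes without overlap. Here 6 members were called higher and none lower, beside 5.14% and 6.8% of all genes tested, and all 9 passed in the upward direction with no fold minimum, beside 17.1% of all genes higher and 15.0% lower. Mthfd2 had the largest difference, 20.2-fold, or 4.33 as a log2 value (adjusted p = 8.77e-231, DESeq2). Psph followed at 2.97, or 7.85-fold, then Shmt2 at 2.37, Aldh1l2 at 2.29, Psat1 at 1.76 and Phgdh at 1.63. Shmt1 did not pass with edgeR (adjusted p = 0.0116), in a fit of all 18 libraries (adjusted p = 0.124, DESeq2) or without CK666 replicate 2, CK666 replicate 3, CytoD replicate 2 or CytoD replicate 3 (adjusted p from 0.0134 to 0.0216, DESeq2). The members under the fold minimum were Mthfd1 at 0.81, Shmt1 at 0.70 and Mthfd1l at 0.42, so that both cytosolic enzymes and the formate-releasing enzyme of mitochondria had the smallest differences between the agents.

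**Figure D3:**
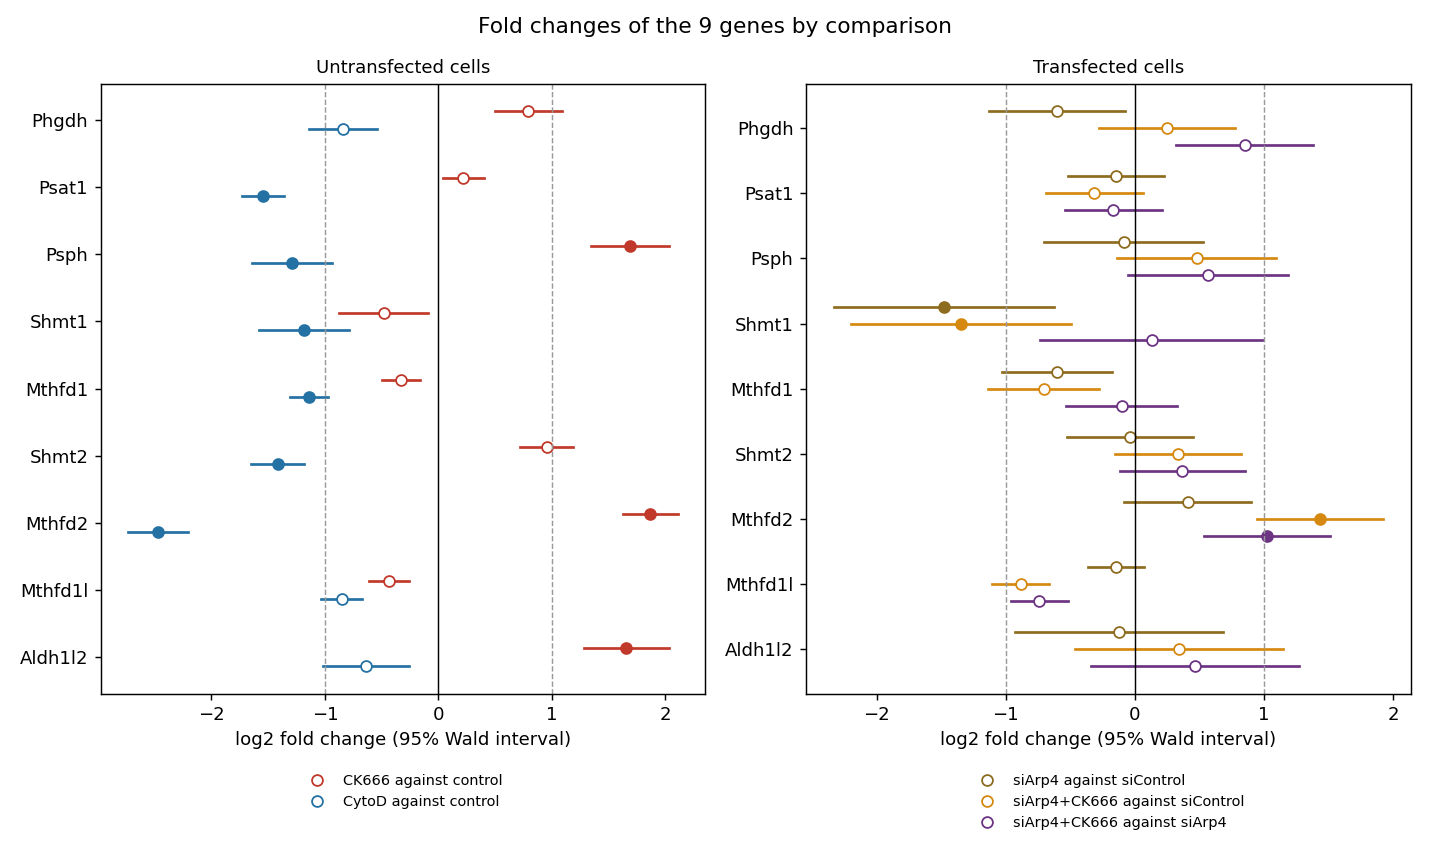
Log2 fold change (horizontal axis) of the 9 genes with 95% Wald intervals, for 2 comparisons of untransfected cells on the left and 3 of transfected cells on the right. Filled points were called (absolute log2 fold change over 1, marked by dashed lines, and adjusted p below 0.01) and open points were not. With CytoD all 9 points are left of 0, and in transfected cells only Shmt1 and Mthfd2 have filled points.

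Ratios of enzymes within a library do not depend on the scaling between libraries. The ratio of Mthfd2 to Mthfd1l, which catalyze consecutive steps of the mitochondrial pathway, was 0.530 to 0.596 per kb in control. It was 2.55 to 3.38 with CK666 and 0.176 to 0.201 with CytoD, so the groups were wholly apart. The ratio of Shmt2 to Shmt1, the mitochondrial and the cytosolic form of the same enzyme, was 9.41 to 14.1 in control and 27.1 to 41.6 with CK666. With CytoD it was 9.57 to 11.5, inside the control range. Phgdh to Psat1 was 1.40 to 1.42 in control, a narrow range, and higher both with CK666, at 1.86 to 2.43, and with CytoD, at 2.17 to 2.39.

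**Figure D4:**
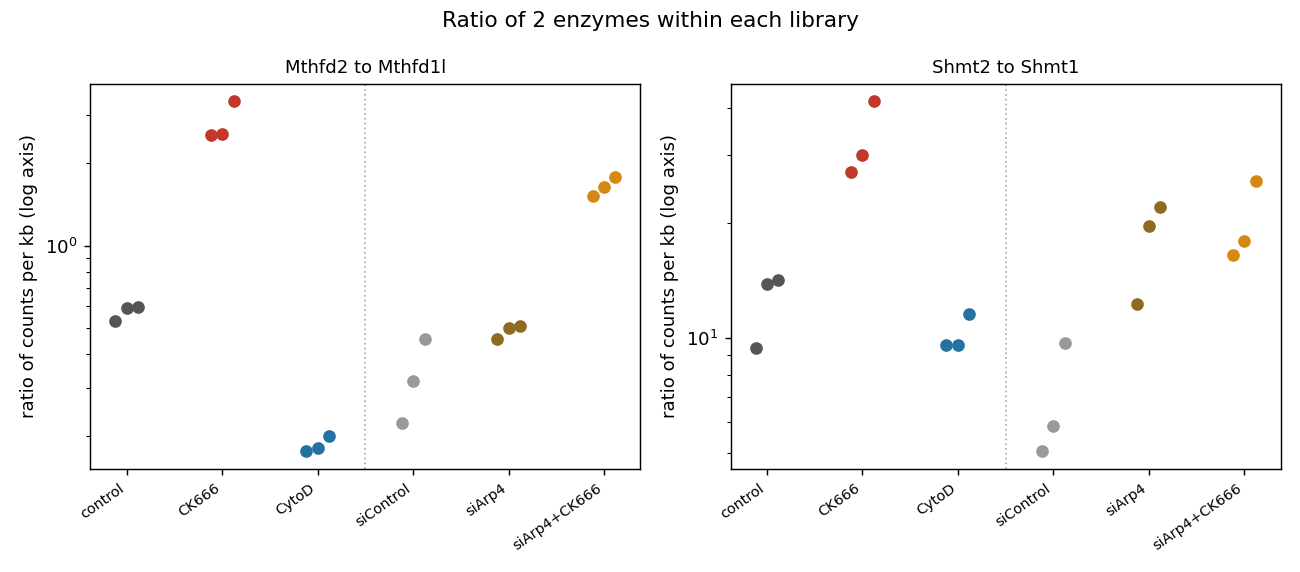
Ratio of normalized counts per kb (log axis) of Mthfd2 to Mthfd1l on the left and of Shmt2 to Shmt1 on the right, in 18 libraries, each point being 1 library and the 3 points of a group drawn from lowest to highest. The Mthfd2 to Mthfd1l ratio is above 2.5 only in the 3 CK666 libraries of untransfected cells and is 1.52 to 1.79 in siArp4+CK666.

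In transfected cells siArp4 against siControl asked what loss of Arp4 changed. One member, Shmt1, was called lower and none higher, beside 9.58% and 6.76% of all genes tested, and with no fold minimum the counts were again 1 lower and 0 higher, beside 13.3% and 12.1%. At an unadjusted p below 0.05 there were 3 members (Phgdh, Shmt1 and Mthfd1, all lower), beside 42.7% of all genes tested, and edgeR called none in either direction. The median log2 fold change was -0.14, against -0.05 over all genes tested. Shmt1 read 133, 411 and 347 normalized counts in siControl and 152, 95.03 and 72.1 in siArp4. These groups overlapped, since siControl replicate 1 was lower than siArp4 replicate 1. Its log2 fold change was -1.48 (SE 0.44, adjusted p = 0.00329, DESeq2), and the call was lost without siControl replicate 2 (-1.18, adjusted p = 0.0245), siControl replicate 3 (-1.36, adjusted p = 0.0312), siArp4 replicate 2 (-1.40, adjusted p = 0.0265) or siArp4 replicate 3 (-1.26, adjusted p = 0.0360, all DESeq2), and with edgeR (-1.49, adjusted p = 0.0253). Without siControl replicate 1 it was -1.83. Smcr8, which overlaps Shmt1 on the opposite strand and shares 3.90% of its 31-base words, differed by 0.02 (adjusted p = 0.979, DESeq2).

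The other members did not pass. Phgdh read 2320, 4517 and 3288 in siControl and 2397, 2307 and 1962 in siArp4, an overlap that came from siControl replicate 1, and its log2 fold change was -0.60 (SE 0.27, adjusted p = 0.0674, DESeq2). Without siControl replicate 1 it was -0.82 with an adjusted p of 0.000874, and without siControl replicate 2, the highest, -0.34 with an adjusted p of 0.237 (DESeq2). Mthfd1 read 1158, 889 and 1147 in siControl and 654, 769 and 682 in siArp4, without overlap, at -0.60 (SE 0.22, adjusted p = 0.0203, DESeq2), and without siControl replicate 2 it was -0.72 with an adjusted p of 0.00370. Mthfd2 read 328, 633 and 423 in siControl and 610, 593 and 630 in siArp4, where the knockdown libraries were close together inside the siControl range, at 0.41 (95% interval -0.08 to 0.90, adjusted p = 0.204, DESeq2). Without siControl replicate 2, the highest, it was 0.70 with an adjusted p of 0.000581, and without siControl replicate 1, the lowest, 0.21 with an adjusted p of 0.426 (DESeq2). The intervals of the remaining members were -0.52 to 0.23 for Psat1, -0.70 to 0.53 for Psph, -0.52 to 0.45 for Shmt2, -0.36 to 0.07 for Mthfd1l and -0.93 to 0.68 for Aldh1l2.

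siArp4+CK666 against siControl, which shares its siControl libraries with the previous comparison, gave 1 member called higher, Mthfd2, and 1 called lower, Shmt1, beside 8.13% and 12.5% of all genes tested. With no fold minimum Mthfd1 and Mthfd1l joined the lower side, making 1 higher and 3 lower beside 14.2% and 16.0%. Mthfd2 read 1198, 1166 and 1360, above all siControl libraries, with a log2 difference of 1.43 (SE 0.25, adjusted p = 9.83e-08, DESeq2), and without siControl replicate 1, the lowest, it was 1.24. Mthfd1l read 933, 973 and 967, below siControl at 1856, 1763 and 1680, at -0.88 (SE 0.11, adjusted p = 7.42e-14, DESeq2). The Mthfd1l libraries of siArp4+CK666 were the lowest of that gene among all 9 transfected libraries. Shmt1 read 123, 128 and 99.1, below all siControl libraries, at -1.35 (SE 0.44, adjusted p = 0.00699, DESeq2). That call was lost on leaving out any of the 3 siArp4+CK666 libraries, siArp4 replicate 2, siControl replicate 2 or siControl replicate 3, with adjusted p from 0.0126 to 0.0510, and with edgeR (adjusted p = 0.0306). Mthfd1 read 597, 540 and 822, at -0.71 (SE 0.22, adjusted p = 0.00461, DESeq2), and did not pass with edgeR (adjusted p = 0.0179) or when siControl replicate 1 or 3, siArp4+CK666 replicate 1 or 2, or any siArp4 library was left out (adjusted p from 0.0123 to 0.0524, DESeq2).

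siArp4+CK666 against siArp4 asked what CK666 added once Arp4 was lost. Mthfd2 was called higher and no member was called lower, beside 1.61% and 4.04% of all genes tested, and with no fold minimum Mthfd1l was added on the lower side, beside 3.75% higher and 5.94% lower. Over all genes, the 537 higher and 851 lower with no fold minimum became 254 and 521 without siArp4 replicate 1. Without siControl replicate 2 they became 848 and 1130. All siArp4+CK666 libraries of Mthfd2 were well above all siArp4 libraries, a 2.03-fold difference, and the log2 fold change was 1.02 (SE 0.25, adjusted p = 0.000655, DESeq2). The call was lost with edgeR (adjusted p = 0.0204) and without siArp4 replicate 1 (1.02, adjusted p = 0.0160), siArp4 replicate 2 (adjusted p = 0.0188) or siArp4+CK666 replicate 3 (0.95, adjusted p = 0.0157, all DESeq2). Mthfd1l read 1534, 1656 and 1606 in siArp4, wholly above siArp4+CK666, at -0.74 (SE 0.11, adjusted p = 2.58e-09, DESeq2). Phgdh read 3411, 3800 and 4792 in siArp4+CK666, wholly above siArp4, at 0.85 (SE 0.27, adjusted p = 0.0152, DESeq2). Its adjusted p passed in a fit of only the 2 groups (5.39e-06), with the length trend removed (5.87e-09) and in a fit of all 18 libraries (0.00185). It also passed without siControl replicate 1 (0.000221) or 2 (0.000323, all DESeq2), which are not in the comparison. It did not pass with edgeR (0.0620) or without siArp4+CK666 replicate 3 (0.70, adjusted p = 0.125, DESeq2). Psph read 497, 531 and 425 after siArp4 alone and 553, 766 and 832 with CK666 added, at 0.57 (95% interval -0.05 to 1.18, adjusted p = 0.270, DESeq2). Aldh1l2 read 426, 413 and 524 after siArp4 alone and 834, 649 and 399 with CK666 added, with overlap, at 0.47 (95% interval -0.34 to 1.27, adjusted p = 0.573, DESeq2). Without siArp4+CK666 replicate 1 it was 0.21, and without siArp4+CK666 replicate 3 0.71. The ratio of Mthfd2 to Mthfd1l per kb was 0.455 to 0.505 in siArp4 and 1.52 to 1.79 in siArp4+CK666, and 0.225 to 0.456 in siControl, whose highest library just reached the siArp4 range.

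The difference between the CK666 effect in siArp4 cells and that in untransfected cells was tested over all 18 libraries. No member was called higher and none lower, beside 2.01% and 2.67% of all genes tested, while 6 had an unadjusted p below 0.05, beside 25.2% of all genes tested, all with the smaller or more negative effect in siArp4 cells, and edgeR also called none. Mthfd2 differed by -0.85 (95% interval -1.38 to -0.31, adjusted p = 0.0189, DESeq2), Psph by -1.12 (-1.85 to -0.39, adjusted p = 0.0233) and Aldh1l2 by -1.20 (-2.11 to -0.29, adjusted p = 0.0652). Still under the fold minimum, Mthfd2 had an adjusted p of 0.00961 with TMM factors and 0.000386 with the length trend removed (DESeq2). Without siControl replicate 1 its adjusted p was 0.000913, without siControl replicate 2 4.98e-05 and without CK666 replicate 1 0.0805 (all DESeq2). Psph was called without siControl replicate 1 (adjusted p = 0.00276) or siControl replicate 2 (adjusted p = 0.00152), and Aldh1l2 without siControl replicate 1 (adjusted p = 0.00488) or with the length trend removed (-1.41, adjusted p = 2.73e-05, all DESeq2), although the contrast itself has no siControl term. Mthfd1l differed by -0.31 (adjusted p = 0.0377) and Phgdh by 0.06 (95% interval -0.57 to 0.68, adjusted p = 0.941, DESeq2). Transfection, knockdown and experiment cannot be told apart in this contrast.

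The baselines of the experiments differed. Against control, siControl had 6 members called lower (Phgdh, Psat1, Shmt2, Mthfd1, Mthfd2 and Aldh1l2) and none higher, beside 9.88% and 13.7% of all genes tested, and with no fold minimum Mthfd1l was the seventh lower member, beside 19.9% lower and 21.2% higher. Over all genes the 1465 called lower became 2254 without siControl replicate 1, and the 2032 called higher became 1341 without siControl replicate 2. Psat1 had the largest difference, at -1.98 (SE 0.14, adjusted p = 3.06e-43, DESeq2), followed by Aldh1l2 at -1.89, Shmt2 at -1.63 and Mthfd2 at -1.58. Phgdh at -1.15 was no longer called without siControl replicate 1 (-0.94), nor Mthfd1 at -1.08 without siControl replicate 2 (-0.98). Aldh1l2 read 817, 280 and 387 in siControl, where replicate 1 was the highest, as it was for Mthfd1 and Mthfd1l, whereas for the other members it was the lowest. Without siControl replicate 1 the log2 value of Aldh1l2 was -2.44. Transfection, the control siRNA and the experiment cannot be told apart.

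Genes around the pathway were read from lists chosen by function, and their counts stand beside the shares of all genes tested. With CK666 4.8% of all genes were called higher and 5.95% lower, and with CytoD 4.76% and 4.26%. In siArp4 against siControl the shares were 6.76% and 9.58%, and in siArp4+CK666 against siControl 8.13% and 12.5%. In the difference between CK666 effects they were 2.01% and 2.67%. Of the 23 folate and glycine cleavage genes outside the 9, 21 were tested with CK666, with a median log2 fold change of -0.02. Tyms, which makes thymidylate, was called lower at -1.07, while Mthfs, which returns formyl-folate to the cycle, was the 1 gene called higher, at 1.08. With CytoD 1 of 20 was called higher, again Mthfs. In siArp4 cells 2 of 21 were called lower, near the 9.58% of all genes tested. They were Sardh, the sarcosine dehydrogenase, at -1.75 and Slc19a1, the reduced folate carrier, at -1.62.

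Of the 13 genes that use serine, 12 were tested with CK666 and 1 was called higher. This was Cth, the cystathionine lyase that ends the route from serine to cysteine, with a log2 difference of 3.48 (SE 0.19, adjusted p = 7.11e-69, DESeq2), and with CytoD it was the 1 gene of 10 called lower, at -1.86. The CK666 effect on Cth differed by -4.27 between siArp4 and untransfected cells (adjusted p = 3.73e-28, DESeq2), a difference that was called. Its mean normalized count was 59.0 in control and 659 with CK666, but 47.7 in siArp4 and 27.4 in siArp4+CK666, so the estimates pointed opposite ways. In siArp4 against siControl 3 of 10 were called higher, beside 6.76% of all genes tested. They were Sptlc1, of sphingolipid synthesis, at 1.38, Serinc1 at 1.08 and Serinc3 at 1.02.

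Purine synthesis takes up folate-bound carbon. None of its 13 genes was called with CK666, with a median log2 fold change of -0.30, 7 passing in the downward and 1 in the upward direction when no fold minimum was set, beside 14.4% and 15.0% of all genes. With CytoD 4 were called lower (Pfas -1.52, Ppat -1.39 and Prps1 -1.14 among them) and Adssl1 higher (1.52), and 11 passed in the downward direction with no fold minimum, beside 15.7% of all genes. In siArp4 cells 2 of 13 were called lower, Gart at -1.49 and Paics at -1.13, beside 9.58% of all genes tested. Of 13 methionine cycle and salvage genes tested, 1 was called higher with CK666 (Ahcyl2, 1.12) and 3 lower with CytoD (Srm -2.18, Sms -1.14 and Amd1 -1.11), which encode enzymes of polyamine synthesis.

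Other amino acid enzymes known as ATF4 targets had 4 of 8 called higher with CK666 and none lower, with a median log2 fold change of 1.09. These were Gpt2 (2.44) and Got1 (1.60), both transaminases, Pck2 (1.49), the mitochondrial phosphoenolpyruvate carboxykinase, and Asns (1.27), the asparagine synthetase. With CytoD 3 of 8 were called lower and none higher, Bcat1 at -1.64, Asns at -1.47 and Aldh18a1 at -1.42. In siArp4 cells none of the 8 was called, with 1 passing in the downward direction without a fold minimum, beside 13.3% of all genes. The CK666 effect differed between siArp4 and untransfected cells for 4 of them, beside 2.67% of all genes tested, each time with the lower estimate in siArp4 cells, Got1 by -1.61, Pck2 by -1.28, Pycr1 by -1.18 and Gpt2 by -1.06. Still, Gpt2 was the 1 of 8 called higher in siArp4+CK666 against siArp4, at 1.39, beside 1.61% of all genes. Asns was the 1 of 8 called higher in siArp4+CK666 against siControl, at 1.25, beside 8.13%.

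Among 7 transcription regulators known for these genes, 6 were tested. Atf4 itself was higher with CK666, at 1.43 (SE 0.16, adjusted p = 9.98e-19, DESeq2), and lower with CytoD, at -1.34 (SE 0.16, adjusted p = 3.24e-16, DESeq2). Cebpg, which encodes a C/EBP partner of ATF4, was higher with CK666 at 1.04 and not different beyond its error with CytoD, at -0.06 (adjusted p = 0.819, DESeq2). Myc was lower with CytoD at -1.77, and it was 0.68 with CK666 (adjusted p = 2.46e-07, DESeq2). In siArp4 cells Myc was called higher, at 2.07 (SE 0.18, adjusted p = 4.57e-27, DESeq2), whereas Atf4 was -0.41 (adjusted p = 0.178, DESeq2). Nfe2l2 was not called but passed with no fold minimum. It was 0.71 with CK666 (adjusted p = 4.97e-16), 0.31 with CytoD (adjusted p = 0.00127) and 0.68 in siArp4 (adjusted p = 0.000106, all DESeq2). Ehmt2 did so with CK666 (0.40, adjusted p = 9.36e-07) and CytoD (0.31, adjusted p = 0.000157, both DESeq2), and Kdm4c in none of these.

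Proliferation genes moved beside these results. Of 13 DNA replication genes 11 were called lower with CK666 (Ccne2 -2.89, Mki67 -1.90, Mcm4 -1.88 and Mcm6 -1.77 among them) and 8 with CytoD (Ccne2 -1.67 and Mcm3 -1.43), with medians of -1.24 and -1.16. In transfected cells 5 were called lower in siArp4 and 11 in siArp4+CK666 against siControl, beside 9.58% and 12.5% of all genes tested. In siArp4+CK666 against siArp4 6 were called lower, beside 4.04%. In siControl against control 9 were called lower, with a median of -1.26, beside 9.88%. Their part in the values of the 9 genes was not tested.

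Pearson correlation over the 18 libraries, computed on log2(normalized count + 1) among 10318 genes with a mean of at least 100, gave the genes most like 3 of the members in pattern. For Phgdh these were Adh7 (0.96), Pabpc4 (0.96), Shmt2 (0.96), Lmo4 (0.96) and Mta1 (0.96). For Mthfd2 they were Chac1 (0.97), Psph (0.96), Aasdhppt (0.96), Odc1 (0.95) and Atf4 (0.95). Another member and Atf4 are thus in the list, and a part of Atf4 in the Mthfd2 values was not tested. For Shmt1 they were Gart (0.93), Enoph1 (0.92), Ttc7 (0.92), Cwf19l1 (0.91) and Srm (0.90). The libraries share 6 groups and 2 experiments, so these values describe group differences. Among the members themselves the least alike pairs were Psph with Mthfd1l (0.25) and Mthfd2 with Mthfd1l (0.26).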

How the data were processed

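Unstranded paired-end RNA-seq libraries were sequenced by a service provider. The authors quantified them with Salmon 1.2.1 (submitters' processing notes) on GENCODE vM25 of GRCm38 and deposited estimated counts per gene, unscaled between libraries. Expected counts were rounded to whole numbers, shifting a library total by at most 277. Symbols and coordinates came from GENCODE vM21 (GRCm38), which matched 54094 of 54347 identifiers.

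Groups came from the sample labels. The members and lists were chosen with earlier results of these data known. DESeq2 1.42.0 (R 4.3.3) was fitted with group as the only term, on the 9 libraries of each experiment, and on all 18 for the difference between CK666 effects and for siControl against control. Genes were called at an absolute log2 fold change over 1 and an adjusted p below 0.01, and normalized counts are counts divided by DESeq2 size factors. Fits were tested on simulated data. Genes of a list are named, up to 4 per comparison, by size of change among those called with a mean count of at least 50, and the likeness list holds 5 genes per member. Nfe2l2, Ehmt2 and Kdm4c are named outside this rule. A result of the folate list is not reported here. Alternatives were edgeR 4.0.16, TMM factors, a low-count filter (10 counts in 3 libraries), no fold minimum, a test against a log2 fold change of 1, a replicate block, fits of 2 groups or all 18 libraries, omission of each library and, chosen after seeing the data, removal of a gene-length trend. Total counts limit precision through counting error only, and near-identical or overlapping genes on unstranded reads are uncertain.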

Additional observations from a re-analysis of the deposited data

How the results depend on the processing

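Same-numbered libraries correlated between -0.50 and 0.73 in their deviations from the group means. With 3 libraries per group, and length trends within these deviations, this cannot settle whether the numbers pair the samples. With the replicate block siArp4+CK666 against siControl had 0 members called lower in place of 1, and Aldh1l2 in siArp4 against siControl turned to 0.0198. With edgeR the 1 lower member of siArp4, the 1 lower of siArp4+CK666 against siControl and the 1 higher of siArp4+CK666 against siArp4 each became 0, and fits of only 2 groups also gave 0 for both lower counts. A test against a log2 fold change of 1 left 2 higher members with CK666 in place of 3, 2 lower with CytoD, 1 in siControl against control, and 0 in siArp4 and in both siArp4+CK666 comparisons, in either direction. With no fold minimum there were 5 higher and 2 lower members with CK666, 3 lower in siArp4+CK666 against siControl and 1 lower against siArp4. With the length trend removed 1 member was called lower in the difference between CK666 effects, and Shmt2 in siArp4 turned to 0.0858. Leaving out 1 library gave 0 to 1 lower members in siArp4 and in siArp4+CK666 against siControl, 0 to 1 higher against siArp4, and 0 to 2 lower in the difference between effects. It also took estimates that did not pass across 0, in siArp4 to between -0.33 and 0.26 for Psph, -0.24 and 0.21 for Shmt2 and -0.41 and 0.44 for Aldh1l2, in siArp4+CK666 against siArp4 to between -0.0836 and 0.48 for Shmt1 and -0.30 and 0.0178 for Mthfd1, and in the difference between effects to between -0.11 and 0.26 for Phgdh. Member estimates kept direction and call in 584 cases under whole-data alternatives, against 15 stronger, 20 weaker and 2 reversed, and in 779 with a library left out, against 4, 16 and 11, and the cause of the changes was not tested. Over all genes, the test against a log2 fold change of 1 moved called counts from 714 higher and 885 lower to 145 and 202 with CK666, from 663 and 593 to 74 and 73 with CytoD, from 764 and 1011 to 219 and 219 in CK666 against CytoD, from 1032 and 1463 to 185 and 246 in siArp4, from 1242 and 1910 to 234 and 558 in siArp4+CK666 against siControl, from 230 and 579 to 30 and 116 against siArp4, from 257 and 341 to 17 and 40 in the difference between effects, and from 2032 and 1465 to 354 and 277 in siControl against control. edgeR moved siArp4+CK666 against siArp4 to 115 and 351 and the difference between effects to 158 and 226.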
